A study of Mus musculus with 30 samples.

Results

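The genes described are 200 mouse genes whose symbols are Zfp and a number, a name given to zinc finger proteins, measured by RNA sequencing in bone marrow-derived macrophages. They were chosen by their symbol and by their measured level. Of 399 such symbols, spread over 830 transcript entries, the entry with the highest mean was taken for each symbol, and a symbol was kept when it reached 1 RPKM (reads per kilobase of transcript, scaled to the mapped reads of the library) in at least 3 of the 30 libraries. Zfp36, Zfp36l1 and Zfp36l2, whose proteins bind mRNA through another kind of zinc finger and promote its decay, were set aside. The same filter kept 10355 of the 24761 symbols in the table, and these are the background for comparisons of level unless another set is named.

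The choice by level bears on what follows. The level of 1 RPKM was reached in all 30 libraries by 66 of the 200 genes and in fewer than 10 libraries by 45. It was reached only in libraries without LPS by 20 genes, which therefore had to be lower after LPS, and in no case only at 1 h or only at 2 h. Just inside the limit, the third highest library of Zfp763 stood at 1.01 RPKM and that of Zfp668 at 1.03 RPKM, and just outside it that of Zfp579 stood at 0.985 RPKM and that of Zfp963 at 0.980 RPKM. Of the 199 symbols not kept, 173 reached 1 RPKM in no library.

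The cells were macrophages differentiated in M-CSF from marrow of C57Bl/6 mice of wild-type genotype. Each culture received DMSO, the vehicle, or 1 µM metaproterenol hemisulfate (MPH), an agonist of the β2 adrenergic receptor, for 2 h, and was collected without LPS (0 h) or after 1 or 2 h of LPS, a bacterial cell wall component sensed by Toll-like receptor 4. The LPS concentration is labelled as 100 ng/µL. The 30 libraries come from 7 cultures given DMSO (named r1, r2, UKD and D3 to D6) and 3 given MPH (M2, M3 and M4), each sampled at all 3 times. The comparisons address how MPH alters the macrophages at rest and their early response to LPS.

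The estimated depth of the libraries ran from 5.60 to 93.2 M reads (1 M is 1e+06), with a median of 42.1 M, so that 1 read in a transcript of 2 kb was worth 0.00536 to 0.0893 RPKM. The shallowest 3 were all from 1 h of LPS, namely D6 with 5.60, UKD with 8.82 and D4 with 10.0 M reads. Summed over the 7 of 8 listed markers that were kept, macrophage genes stood at 3757 to 7156 RPKM in every library, and the summed markers of B cells, T and NK cells, dendritic cells, stromal cells and erythroid and mast cells each stayed under 2.44 RPKM. Summed neutrophil markers ranged from 5.71 to 48.9 RPKM at 0 h under DMSO and from 40.7 to 54.5 RPKM at 0 h under MPH, and reached 92.4 RPKM after LPS. All 5 genes checked for the LPS response rose at 1 h, and all 4 genes checked for the MPH response rose at 0 h. The 1 h library labelled M4 lay with the DMSO libraries for the MPH-responsive genes, so results for MPH at 1 h are also given without it. The labels do not say whether the cultures came from separate animals. Unless a block on the culture is named, p-values measure the spread between libraries, which were taken as independent. Libraries of the same culture deviated together, so without the block p-values for MPH against DMSO can be too small. In bulk RNA, fewer cells of a type and less RNA per cell cannot be told apart.

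A C2H2 zinc finger is a short fold held together by a zinc ion that reads a few bases of DNA, and many such fingers in tandem let 1 protein recognise a long site. The largest group of these proteins carries a KRAB domain, which recruits the corepressor Trim28 and through it the histone methyltransferase Setdb1, and silences transposable elements and imprinted genes. The KRAB zinc finger genes sit in clusters of recent duplicates and are mostly expressed at low levels. Other Zfp proteins carry no KRAB domain and act as transcription activators, as cofactors, in RNA binding, in ubiquitin or SUMO transfer, or in mitosis. In macrophages, LPS switches on inflammatory genes through NF-kB and other factors, and many other genes are turned down.

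Protein translations of annotated transcripts were found for 198 of the 200 genes. A KRAB box was found in 96 of them and not found in 102. The number of fingers found by pattern had a median of 9, of 11 in the proteins with a KRAB box and of 7 in those without, with a highest value of 36, and 4 proteins had 0 by this pattern. Of the 187 matched symbols that were not kept, 133 carried a KRAB box. Of 199 kept genes with a known position, 109 had another Zfp gene among their 4 nearest gene neighbours.

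The 10 genes with the highest level at 0 h under DMSO were Zfp207, Zfp91, Zfp106, Zfp710, Zfp385a, Zfp706, Zfp330, Zfp384, Zfp414 and Zfp622. No KRAB box was found in any of these 10. Zfp207, which encodes the microtubule and kinetochore protein BuGZ, stood at 25.6 RPKM in the lowest, 28.5 in the median and 35.6 in the highest of the 7 libraries. Zfp91, an E3 ubiquitin ligase of the noncanonical NF-kB pathway, stood at 13.3, 17.2 and 19.4 RPKM. Over all 200 genes the median level within a library lay between 1.59 and 1.97 RPKM at 0 h under DMSO, between 1.01 and 1.51 RPKM at 1 h and between 0.894 and 1.41 RPKM at 2 h. The median over all kept genes was 5.97 to 6.72 RPKM at 0 h, so most Zfp mRNAs lay in the lower part of the measured range.

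LPS lowered many of the Zfp mRNAs within 1 h. Under DMSO, 105 of the 200 genes (52.5%) fell and 8 (4.00%) rose at 1 h against 0 h, and 87 did not pass the threshold (limma on log2 of RPKM + 0.5, Benjamini-Hochberg adjustment over all 10355 genes, adjusted p under 0.05). Over all kept genes, 15% fell and 5.27% rose in the same comparison. The median log2 difference was -0.40 for the Zfp genes and -0.14 for all kept genes. At 2 h, 122 Zfp genes (61.0%) fell and 9 (4.50%) rose, where 43.4% of all kept genes fell and 10.5% rose, and the median log2 differences were -0.45 and -0.25. The 1 h and 2 h comparisons share their 0 h libraries. This fit had no block for the culture, and more genes passed with one, as given below. The level filter contributes to these counts, since 19 of the 20 genes that reached 1 RPKM only at 0 h fell at each time. Among the 139 genes with a mean of at least 1 RPKM over all 30 libraries, 62 fell and 8 rose at 1 h with a median of -0.36, and 77 fell and 9 rose at 2 h with a median of -0.37. In either direction these calls were 50.4% of the 139 at 1 h and 61.9% at 2 h. With that filter, 19.9% and 54.2% of all tested genes were called, so the shares lay closer together at 2 h.

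**Figure D1:**
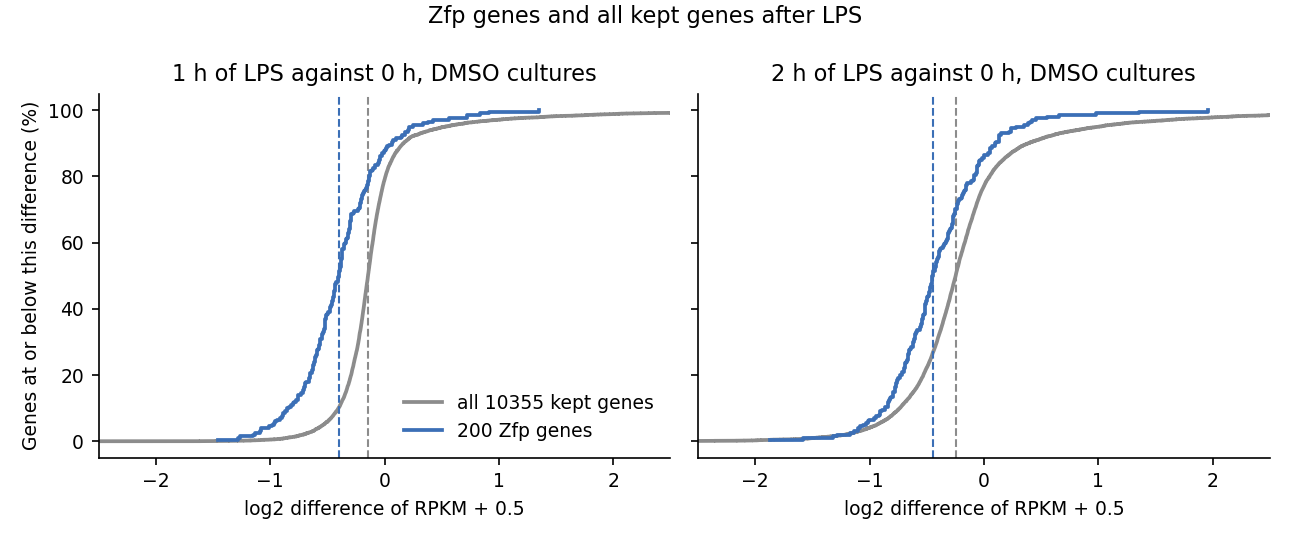
Cumulative share (%) of genes at or below each log2 difference of RPKM + 0.5 after LPS in the DMSO cultures, at 1 h (left) and 2 h (right), for the 200 Zfp genes (blue) and all 10355 kept genes (grey); dashed lines mark medians. The Zfp curve lies left of the grey one over most of its course, with medians of -0.40 against -0.14 at 1 h and -0.45 against -0.25 at 2 h.

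The counts depended on the scaling of the values and on the libraries used. RPKM are relative to the library total, and the median of all kept genes itself moved by -0.14 at 1 h and -0.25 at 2 h under DMSO. With median-of-ratios scaling, which brings that median close to 0, 68 Zfp genes fell and 10 rose at 1 h, beside 5.27% lower and 6.87% higher among all kept genes. With the same scaling at 2 h, 78 fell and 16 rose, beside 18.7% lower and 18.4% higher. Relative to the median of all kept genes, the Zfp median was -0.25 at 1 h and -0.20 at 2 h. Without the 3 shallowest 1 h libraries, 68 Zfp genes fell and 4 rose at 1 h, beside 8.08% lower and 3.75% higher among all kept genes. With the cultures D3 to D6 alone, 21 fell and 3 rose at 1 h, beside 1.71% lower and 2.35% higher, and 58 fell and 3 rose at 2 h, beside 18.6% lower and 6.31% higher.

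The same held culture by culture. At 1 h, the Zfp median minus the median of all kept genes was -0.25 ± 0.07 (SD, n = 7) in the DMSO cultures, from -0.39 in r1 to -0.18 in r2. At 2 h it was -0.19 ± 0.14 (SD, n = 7), from -0.42 in D3 to -0.04 in UKD. The difference was below 0 in all 7 cultures at both times, and the 2 h values were spread more widely than the 1 h values. Between 163 and 175 of the 200 genes (81.5% to 87.5%) were lower at 1 h than at 0 h in each DMSO culture. Of all kept genes, 68.16% to 77.25% were lower in each. At 1 h, 132 Zfp genes (66.0%) were lower in all 7 cultures, against 35.8% of all kept genes. At 2 h, 119 (59.5%) were lower in all 7 cultures, against 51.2% of all kept genes.

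**Figure D2:**
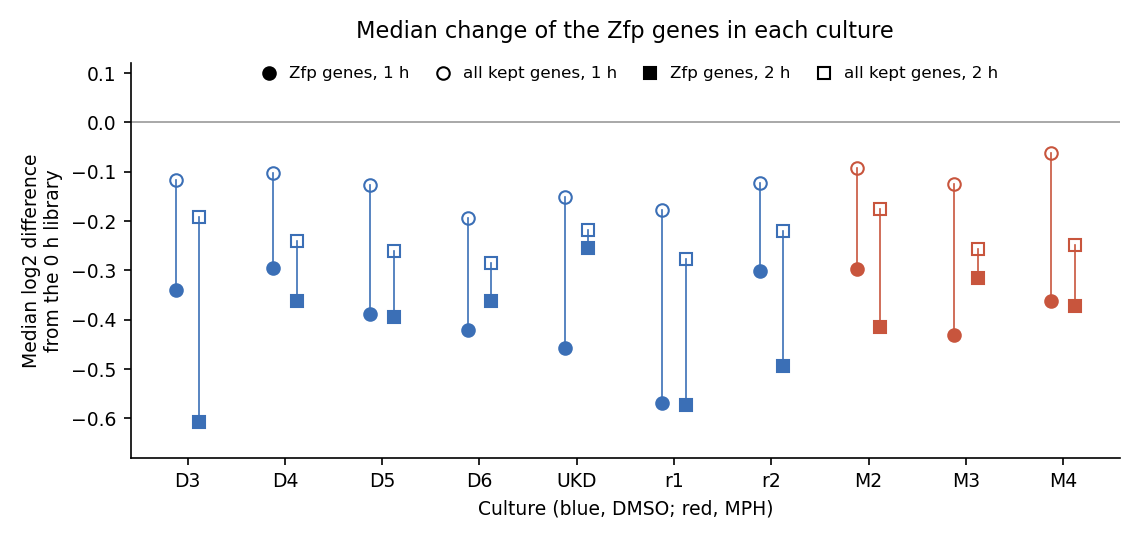
Median log2 difference from the 0 h library of the same culture (vertical axis) for the Zfp genes (filled) and all kept genes (open), at 1 h (circles) and 2 h (squares), in 7 DMSO (blue) and 3 MPH (red) cultures. Every filled symbol lies below the open symbol it is joined to, with gaps of -0.39 to -0.18 in the DMSO cultures at 1 h and of -0.42 to -0.04 at 2 h.

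The Zfp genes were compared with other kept genes of like level, leaving out of both groups the genes that reached 1 RPKM only in 0 h libraries (20 Zfp genes). Between 1 and 2 RPKM, 32 of 65 Zfp genes (49.2%) fell at 1 h, and of the other genes 20.1% fell. Between 2 and 4 RPKM the shares were 48.9% (22 of 45) and 19.9%. Above 4 RPKM the Zfp genes were few: 5 of 20 fell between 4 and 8 RPKM, where 16.7% of other genes did, and 2 of 8 fell at 8 RPKM or more, where 8.96% did. Below 1 RPKM 25 of 42 Zfp genes (59.5%) and 9.83% of other genes fell, and with the left-out genes put back these were 43 of 61 (70.5%) and 16.5%. A gene with a mean below 1 RPKM can pass the filter only through its higher libraries, so the shares in this class are also shaped by the filter. At 2 h the shares of Zfp genes and of other genes lay close together between 1 and 4 RPKM, at 58.5% and 55.5% between 1 and 2 RPKM and at 53.3% and 55.7% between 2 and 4 RPKM.

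**Figure D3:**
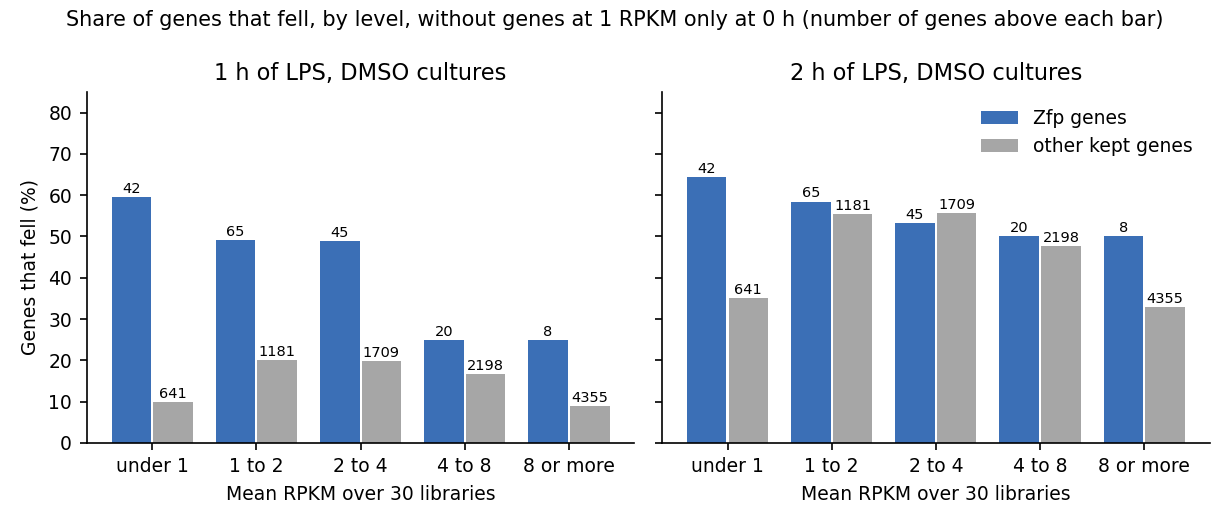
Share of genes that fell (%, vertical axis, from 0) by mean RPKM over the 30 libraries (horizontal axis), for Zfp genes (blue) and other kept genes (grey) at 1 h (left) and 2 h (right) under DMSO, without the genes that reached 1 RPKM only at 0 h; the number of genes stands above each bar. At 1 h the Zfp bar is the taller in each class, 49.2% against 20.1% between 1 and 2 RPKM, and at 2 h both bars are of like height between 1 and 8 RPKM; the class below 1 RPKM is shaped by the level filter.

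Of the 8 genes with the largest falls at 1 h, 5 encode a KRAB box, and 7 were still below 0 h past the threshold at 2 h. Zfp472, a KRAB protein with 12 fingers, stood at 1.92, 2.31 and 2.95 RPKM (lowest, median and highest of the 7 DMSO libraries) at 0 h, at 0.365, 0.504 and 0.749 at 1 h, and at 0.408, 0.862 and 0.977 at 2 h. The libraries with LPS did not overlap with those at 0 h at either time. Its log2 difference was -1.45 ± 0.11 (SE) at 1 h, with an adjusted p of 3.7e-09 by limma, and -1.10 ± 0.11 at 2 h, with an adjusted p of 9.2e-08. Zfp61, a KRAB protein with 8 fingers, went from 1.54, 1.82 and 2.09 RPKM at 0 h to 0.289, 0.483 and 0.696 at 1 h and 0.267, 0.493 and 0.920 at 2 h. All 14 libraries of Zfp61 with LPS lay below its 7 libraries at 0 h, and the log2 differences were -1.26 ± 0.13 and -1.17 ± 0.13. Zfp12, a KRAB protein with 15 fingers, stood at 1.06, 1.30 and 1.49 RPKM at 0 h and at 0.290, 0.405 and 0.508 at 1 h, again without overlap. Its mean over the 30 libraries was 0.771 RPKM, so it passed the level filter through its higher libraries. For Zfp12 the filter therefore favours a fall.

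Zfp60, a KRAB protein with 19 fingers, fell from a median of 0.987 to 0.215 RPKM at 1 h and stood at 0.308 RPKM at 2 h. Its lowest 1 h library, at 0.0610 RPKM, is at the level of about 1 read in the shallowest libraries. Zfp623 and Zfp956, in which no KRAB box was found, fell by 1.13 and 1.09 on the log2 scale at 1 h and by 0.76 and 0.83 at 2 h. Zfp82 and Zfp120, both with a KRAB box, each fell by 1.08 at 1 h. Zfp82 had partly returned at 2 h, when its difference from 0 h was -0.39, whereas that of Zfp120 was -1.14. Zfp41 and Zfp90 went on falling between the times: Zfp41 was lower by 0.91 at 1 h and by 1.32 at 2 h, and Zfp90, a KRAB protein, by 0.82 and 1.10. These 7 genes, and likewise Zfp472, Zfp61 and Zfp12, were below their 0 h level in each of the 7 DMSO cultures at 1 h.

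Bases just before the transcription start are shown for 4 of the genes with the largest falls at 1 h (Zfp472, Zfp553, Zfp61 and Zfp60) and for 2 that rose (Zfp263 and Zfp719), so that promoters of genes that moved in opposite directions can be compared. Each stretch holds the 150 bases before the start on the gene's strand, from RefSeq on build GRCm38.p6, which is not the mm9 build of the files. Capitals mark a GC box (GGGCGG) or a CRE half-site (TGACG), on either strand. The stretches are chr17:32965681-32965830 (+) for Zfp472, chr7:127232911-127233060 (+) for Zfp553, chr7:24299550-24299699 (-) for Zfp61, chr7:27731259-27731408 (+) for Zfp60, chr16:3743949-3744098 (+) for Zfp263 and chr7:43579436-43579585 (+) for Zfp719.
Zfp472: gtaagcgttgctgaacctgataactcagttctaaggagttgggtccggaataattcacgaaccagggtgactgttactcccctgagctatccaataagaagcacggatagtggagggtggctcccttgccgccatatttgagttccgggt
Zfp553: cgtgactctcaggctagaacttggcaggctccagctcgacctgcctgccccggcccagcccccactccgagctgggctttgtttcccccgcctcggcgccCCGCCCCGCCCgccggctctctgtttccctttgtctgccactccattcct
Zfp61: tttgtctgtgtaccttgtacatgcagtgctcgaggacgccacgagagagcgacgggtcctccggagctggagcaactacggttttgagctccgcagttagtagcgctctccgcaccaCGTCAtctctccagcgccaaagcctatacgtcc
Zfp60: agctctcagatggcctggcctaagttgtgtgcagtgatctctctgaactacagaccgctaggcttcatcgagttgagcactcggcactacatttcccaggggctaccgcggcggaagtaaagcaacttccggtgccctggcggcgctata
Zfp263: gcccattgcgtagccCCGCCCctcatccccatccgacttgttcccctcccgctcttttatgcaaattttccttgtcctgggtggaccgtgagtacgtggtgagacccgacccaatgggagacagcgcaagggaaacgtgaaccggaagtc
Zfp719: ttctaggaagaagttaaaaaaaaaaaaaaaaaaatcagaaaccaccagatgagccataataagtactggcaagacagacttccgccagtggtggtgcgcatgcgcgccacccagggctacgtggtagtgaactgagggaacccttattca

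Neither Zfp472 nor Zfp60, which fell, nor Zfp719, which rose, held any of the motifs searched, and Zfp553 and Zfp263, which moved in opposite directions at 1 h, both held a GC box. Windows of 300 bases, 250 before and 50 after the start, were found for 165 of the 200 genes (207 windows) among 32851 windows of all genes. The windows of all genes come from 27025 genes and were not limited to those kept by the level filter. The CRE (TGACGTCA), to which CREB binds, was in 3.86% of the Zfp windows and 1.79% of all windows, and its half-site TGACG in 36.7% and 20.8%. The AP-1 site (TGANTCA) was in 3.86% and 7.81%, the kB site (GGGANTTTC) in 0.966% and 1.11%, and the GC box in 50.7% and 35.7%. A full CRE contains the half-site on both strands, so these counts overlap. The median GC content was 57.7% in the Zfp windows and 52.7% in all windows. These are counts of letters on both strands, given as a description.

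Genes with a KRAB box fell more often than those without, and were also at lower levels. Of the 96 genes with a KRAB box, 61 fell and 2 rose at 1 h, with a median log2 difference of -0.52, and 65 fell and 3 rose at 2 h, with a median of -0.47. Of the 102 without, 43 fell and 6 rose at 1 h, with a median of -0.33, and 56 fell and 6 rose at 2 h, with a median of -0.38. The median of the mean level was 1.02 RPKM in the first group and 2.28 RPKM in the second. Over all kept genes, 15.05% fell at 1 h and 43.4% at 2 h. Between 1 and 4 RPKM, 28 of 47 genes with a KRAB box (59.6%) and 27 of 63 without (42.9%) fell at 1 h, with medians of -0.51 and -0.37. At 2 h these were 30 (63.8%) and 33 (52.4%), with medians of -0.45 and -0.41. Within this class the levels still differed, with a median of the mean level of 1.31 RPKM with a KRAB box and 2.08 RPKM without. Of kept genes other than Zfp genes, 20.1% fell at 1 h and 55.5% at 2 h between 1 and 2 RPKM. Between 2 and 4 RPKM these shares were 19.9% and 55.7%. The difference between both groups was not tested.

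By finger number, the shares that fell were ordered at 1 h and not at 2 h. Of genes with 10 or more fingers, 57 of 95 fell at 1 h (60.0%) and 54 at 2 h (56.8%). Of those with 3 to 9 fingers, 40 of 82 fell at 1 h (48.8%) and 55 at 2 h (67.1%), and of those with up to 2 fingers, 7 of 21 at 1 h (33.3%) and 12 at 2 h (57.1%). The median of the mean level was 1.03, 2.01 and 2.48 RPKM in these groups. Of genes with 3 or 4 Zfp genes among their 4 neighbours, 29 of 47 fell at 1 h (61.7%) and 30 at 2 h (63.8%), and of those with none, 40 of 90 at 1 h (44.4%) and 55 at 2 h (61.1%). Over all kept genes, 15.05% fell at 1 h and 43.4% at 2 h. The differences between these groups were not tested. Runs of neighbouring genes differed, and only some are given here. The run with most of the 200 genes, from Zfp677 to Zfp946, held 11, of which 3 fell at 1 h and 6 at 2 h. The run from Zfp712 to Zfp273 held 9, of which 5 fell at 1 h and 7 at 2 h. A run from Zfp84 to Zfp146 also held 9 of the 200 genes (Zfp84, Zfp790, Zfp27, Zfp74, Zfp568, Zfp82, Zfp260, Zfp382 and Zfp146). At 1 h, 8 of these 9 fell, with log2 differences from -1.08 to -0.38, and at 2 h 6 fell. Zfp472, Zfp952 and Zfp763, members of another run, all fell at both times, with a median of -0.96 at 1 h. In the run of Zfp119a, Zfp959 and Zfp119b, none of the 3 passed the threshold, with a median of -0.00324. Reads of near-identical copies such as Zfp119a and Zfp119b, Zfp729a and Zfp729b, or Zfp874a and Zfp874b may have been split between them, so their separate values are uncertain.

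A smaller set of genes fell at 1 h and stood again near the 0 h level at 2 h. Between 1 and 2 h of LPS, 20 Zfp genes rose and 26 fell, and among all kept genes 6.62% rose and 15.4% fell. Zfp319 stood at 2.10, 2.80 and 3.59 RPKM (lowest, median, highest) at 0 h, at 0.897, 1.19 and 1.83 at 1 h and at 1.48, 3.05 and 5.22 at 2 h. The 1 h libraries lay below all 0 h libraries, and the 2 h libraries overlapped with both other times. From 1 to 2 h Zfp319 rose by 1.04 ± 0.21 (SE) on the log2 scale, with an adjusted p of 0.0012 by limma, after a difference of -0.89 from 0 to 1 h. Zfp553 stood at 1.12, 1.69 and 2.18 RPKM at 0 h, at 0.215, 0.387 and 0.555 at 1 h and at 0.669, 1.27 and 2.20 at 2 h. It had the second largest fall of all 200 genes at 1 h, -1.28 ± 0.15, and its difference of -0.26 at 2 h did not pass the threshold (adjusted p = 0.14).

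Zfp217, a corepressor that works with CtBP, showed the same course, with medians of 4.02, 2.07 and 3.79 RPKM at 0, 1 and 2 h. It was below its 0 h level in all 7 DMSO cultures at 1 h and in 4 of them at 2 h. Zfp189, a KRAB protein, had medians of 0.834, 0.388 and 0.936 RPKM, and rose by 0.77 between 1 and 2 h. Zfp949, also with a KRAB box, had medians of 1.06, 0.745 and 1.71 RPKM, so that it rose at 2 h above its 0 h level (log2 difference 0.46). Zfp82, Zfp871 and Zfp800 completed the 8 largest rises between 1 and 2 h, at 0.68, 0.65 and 0.64.

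Another set fell mainly between 1 and 2 h. Zfp395, in whose protein 1 finger and no KRAB box were found, stood at 1.25, 2.32 and 3.53 RPKM at 0 h, at 0.836, 1.66 and 2.31 at 1 h and at 0.155, 0.236 and 0.593 at 2 h. The 2 h libraries did not overlap with those at 0 h or 1 h. It had the largest fall of the 200 genes at 2 h, -1.87 ± 0.16 (SE), with an adjusted p of 2.3e-08 by limma. Zfp710 stood at 6.85, 11.5 and 16.1 RPKM at 0 h, at 4.49, 7.53 and 10.3 at 1 h and at 1.95, 3.62 and 5.24 at 2 h, and its log2 difference at 2 h was -1.58 ± 0.21. Zfp652, which encodes a transcriptional repressor, had medians of 3.12, 2.60 and 0.815 RPKM, and Zfp362 had medians of 3.73, 3.11 and 1.39 RPKM. At 1 h neither passed the threshold (-0.30 for Zfp652 and -0.22 for Zfp362), and at 2 h they had fallen by 1.28 and 1.05. Zfp367, Zfp608, Zfp704 and Zfp317 were the others among the 8 largest falls between 1 and 2 h, at -0.70, -0.61, -0.58 and -0.52, and only Zfp317 of the 8 had a KRAB box.

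The rises were few and led by Zfp263, whose protein binds DNA through its fingers. Zfp263 stood at 6.10, 7.16 and 10.7 RPKM at 0 h, at 14.6, 18.5 and 29.6 at 1 h and at 23.9, 29.6 and 45.3 at 2 h under DMSO. Every culture went up at each step, and the 0 h libraries did not overlap with either LPS time. The log2 difference was 1.35 ± 0.16 (SE) at 1 h, with an adjusted p of 3.5e-06 by limma, and 1.96 ± 0.16 at 2 h, with an adjusted p of 8.5e-09. At 2 h it stood among the highest of the 200 genes, near Zfp207 with a median of 24.8 RPKM.

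Zfp800 rose by 0.72 at 1 h and 1.36 at 2 h, with medians of 2.16, 3.77 and 5.47 RPKM. Zfp703, a cofactor of the NET family, rose by 0.91 and 0.98, and its 0 h libraries ranged from 2.22 to 5.63 RPKM and its 1 h libraries from 4.14 to 14.2 RPKM, so that the ranges overlapped although each culture rose. Zfp719, Zfp275, Zfp622 and Zfp516 peaked at 1 h. Zfp719, a KRAB protein, rose from a median of 0.684 to 1.67 RPKM and stood at 0.996 RPKM at 2 h. Zfp622, which takes part in assembly of the large ribosomal subunit, rose from 7.49 to 11.9 RPKM (log2 difference 0.57), and its difference at 2 h, 0.28, did not pass the threshold (limma, adjusted p = 0.065). Zfp275 rose by 0.72 at 1 h, and at 2 h its difference of 0.24 did not pass. Zfp607a rose at both times, by 0.33 and 0.40.

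Zfp513, Zfp281, Zfp949 and Zfp451 passed the threshold as higher at 2 h and not at 1 h. Zfp281, a factor that binds GC-rich promoters, had medians of 2.04, 2.29 and 3.18 RPKM at 0, 1 and 2 h and rose by 0.55 at 2 h. Zfp513 rose by 0.66, from a median of 4.29 to 7.55 RPKM. Zfp451, a SUMO ligase, had a log2 difference of 0.42 at both times in the transcript entry with the highest mean (limma, adjusted p of 0.083 at 1 h and 0.039 at 2 h), whereas averaged over all its transcript entries the Zfp451 difference at 2 h was 0.04, with an adjusted p of 0.82 by limma.

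**Figure D4:**
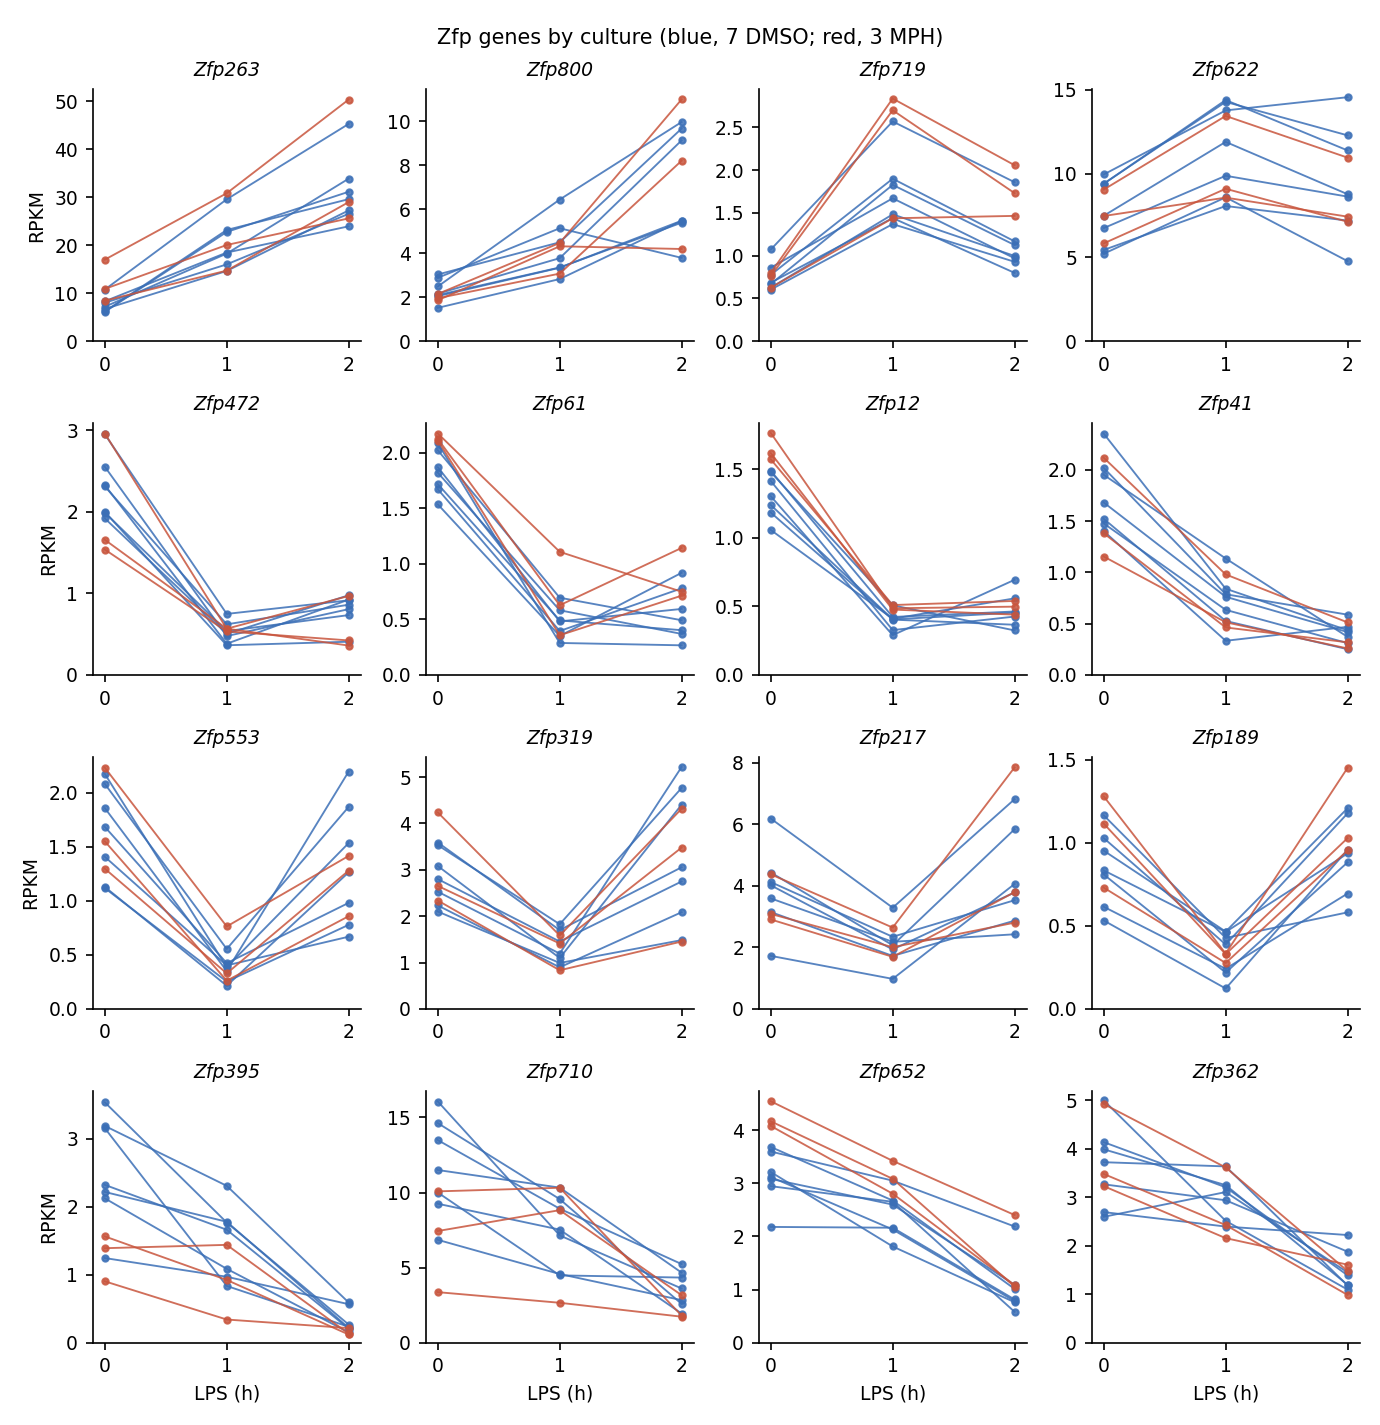
RPKM (vertical axes, from 0) at 0, 1 and 2 h of LPS (horizontal axes) for 16 Zfp genes, 1 line per culture, 7 with DMSO (blue) and 3 with MPH (red). Top to bottom, the rows show genes that rose (Zfp263 from 6.10-10.7 RPKM at 0 h to 23.9-45.3 at 2 h under DMSO), genes that fell at 1 h and stayed low, genes that fell at 1 h and were near their 0 h level at 2 h, and genes that fell mainly between 1 and 2 h. Zfp12 had a mean of 0.771 RPKM over all libraries, so the level filter favours its fall.

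The Zfp genes were also read by role. Of 8 genes for RNA binding, splicing or the ribosome, 1 rose (Zfp622) and 2 fell at 1 h, and none rose and 3 fell at 2 h. The shares that fell, 25% and 37.5%, stand beside 15.05% and 43.4% of all kept genes. Zfp346, which binds double-stranded RNA, fell at both times, by 0.45 and 0.51. Zfp830 fell by 0.31 at 1 h, and Zfp326, a subunit of the DBIRD splicing complex, and the RNA-binding protein gene Zfp106 fell at 2 h by 0.27 and 0.26. The falls of Zfp326 and Zfp106 are close to the general shift, since the median of all kept genes at 2 h was -0.25. Zfp598, the E3 ligase that senses collided ribosomes, had medians of 4.97, 4.90 and 8.37 RPKM and did not pass at 2 h (log2 difference 0.39, limma adjusted p = 0.093). Zfp638 and Zfp593, with log2 differences of -0.06 each at 2 h, did not pass either. The fall of Zfp106 at 2 h was at 0.00205 with median-of-ratios scaling.

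Of 10 transcription factors and cofactors without a KRAB box, 1 rose (Zfp703) and 2 fell (Zfp217 and Zfp410) at 1 h. At 2 h, 2 rose (Zfp703 and Zfp281) and 3 fell (Zfp410, Zfp148 and Zfp292). The shares that fell, 20.0% and 30%, are near or under those of all kept genes, 15.05% and 43.4%. Zfp410, a factor known for activating Chd4, fell from a median of 4.67 to 3.48 RPKM at 1 h and 3.45 RPKM at 2 h, with log2 differences of -0.44 and -0.46. Zfp148 fell by 0.51 and Zfp292 by 0.64 at 2 h. Zfp384, Zfp143, Zfp335 and Zfp318 passed at neither time, with log2 differences at 2 h of -0.15, -0.11, 0.05 and -0.05. The Zfp335 value is uncertain, because an antisense transcript, Zfp335os, overlaps the gene and the use of strand in counting is not given in the sources used here.

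Of 3 kept genes of silencing (Zfp809, Zfp445 and Zfp638), 1 fell at each time. This is 33.3%, beside 15.05% of all kept genes at 1 h and 43.4% at 2 h. Zfp809, a KRAB protein that silences murine leukaemia proviruses with Trim28, fell from a median of 2.78 to 1.62 RPKM at 1 h and 1.65 RPKM at 2 h. Its log2 differences were -0.52 and -0.60, and it was lower in all 7 DMSO cultures at both times. Zfp445, a KRAB protein that guards imprints together with Zfp57, had medians of 7.36, 5.03 and 5.36 RPKM, and did not pass (-0.34 at 1 h and -0.31 at 2 h, limma adjusted p of 0.12 and 0.079). Zfp57 itself was not kept, with a highest value of 0.109 RPKM. Zfp638 passed at neither time, with log2 differences of -0.14 and -0.06. Of 3 genes for signalling, ubiquitin or SUMO, Zfp746, which encodes the Ppargc1a repressor PARIS, fell at both times by 0.42 and 0.45, Zfp91 fell at 2 h by 0.52, and Zfp451 had a log2 difference of 0.42 at each time, past the threshold at 2 h. Zfp207 fell by 0.30 at 1 h and 0.22 at 2 h, and was at 0.048 at 2 h with median-of-ratios scaling.

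The partners of the KRAB domain were also followed. Of 13 genes for the KRAB corepressor and its associated chromatin factors, 2 fell at 1 h (Trim28 and Setdb1) and 10 at 2 h, and none rose, with medians of -0.26 and -0.52. These are 15.4% and 76.9% of the list, where 15.05% and 43.4% of all kept genes fell. The mean level of Trim28 under DMSO was 41.2 RPKM at 0 h, 33.7 at 1 h and 29.3 at 2 h. Setdb1 had means of 8.84, 6.93 and 4.80 RPKM, and Setdb1 fell by 0.81 on the log2 scale at 2 h. Chd4, Hdac1 and Hdac2 did not pass at either time. Of 4 genes of the HUSH silencing complex and its partners, 1 fell at 1 h (Mphosph8) and 3 at 2 h. These lists had been set with earlier results of the data known.

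Other zinc finger families passed through the same filter. Of 34 Zbtb genes, whose proteins join fingers to a BTB domain, 15 fell and 2 rose at 1 h and 17 fell and 5 rose at 2 h. Of 11 Zkscan and Zscan genes, whose proteins carry a SCAN domain, 9 fell at 1 h and 8 at 2 h, and none rose. Of 10 Klf genes, 2 fell and 2 rose at 1 h, and 4 fell and 3 rose at 2 h. The shares that fell at 1 h and 2 h were 44.1% and 50.0% for Zbtb, 81.8% and 72.7% for Zkscan and Zscan and 20.0% and 40.0% for Klf genes, beside 15.05% and 43.4% of all kept genes. Medians at 1 h were -0.37 for Zbtb, -0.45 for Zkscan and Zscan and -0.15 for Klf genes. Whether the Zfp genes differ from these families was not tested.

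With MPH present, the response to LPS ran in the same direction with fewer cultures. At 1 h of LPS, 22 of the 200 genes fell and 1 (Zfp719) rose, where 1.17% of all kept genes fell and 1.88% rose. At 2 h, 47 fell and 6 rose, where 14.7% of all kept genes fell and 5.94% rose. The Zfp medians were -0.38 and -0.37, and those of all kept genes -0.09 and -0.23. Culture by culture, the Zfp median minus that of all kept genes was -0.27 ± 0.06 (SD, n = 3) at 1 h and -0.14 ± 0.09 (SD, n = 3) at 2 h. With median-of-ratios scaling, 16 Zfp genes fell and 2 rose at 1 h, beside 0.666% lower and 2.1% higher among all kept genes. With that scaling at 2 h, 27 fell and 7 rose, beside 5.76% lower and 7.95% higher.

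Libraries of the same culture deviated together, and more genes passed with the culture as a block. Single genes said here not to pass for LPS were judged without the block, and some may pass with it. With the block, 79 genes fell and 7 rose at 1 h under MPH, beside 7.35% lower and 4.63% higher among all kept genes, and 106 fell and 10 rose at 2 h, beside 42.5% lower and 11.6% higher. With the same block under DMSO, 142 fell and 12 rose at 1 h, beside 44.5% lower and 8.74% higher among all kept genes, and 146 fell and 13 rose at 2 h, beside 61.7% lower and 14.8% higher. Without the 1 h library labelled M4, 14 genes fell and 1 rose at 1 h, beside 1.14% lower among all kept genes. Leaving out a whole culture gave as few as 7 calls (3.5%) at 1 h, without M2 or M3 (11 without M4 and 15 without D5). At 2 h there were as few as 30 (15%), without M3 or M4 (33 without M2). Of all kept genes, 1.45% and 1.8% were called at 1 h without M2 and M3. At 2 h, 7.98% and 8.67% were called without M3 and M4. All 22 genes that fell at 1 h under MPH also fell under DMSO, where they are 20.95% of the 105. At 2 h the shared genes were 46, which is 97.9% of the 47 under MPH and 37.7% of the 122 under DMSO. The same overlap was not computed over all kept genes, so it is not shown to be particular to the Zfp genes.

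Many of the leading genes had also moved under DMSO. Zfp472 stood at 1.54, 1.66 and 2.96 RPKM in the 3 MPH cultures at 0 h and at 0.534, 0.568 and 0.568 at 1 h, with a log2 difference of -1.23 ± 0.21 (SE) and an adjusted p of 0.0013 by limma. Zfp12 stood at 1.57, 1.62 and 1.76 RPKM at 0 h and at 0.477, 0.486 and 0.510 RPKM at 1 h, and fell by 1.12. The 1 h values of both genes lay below every 0 h value. Zfp12 passed the level filter through its higher libraries, so for that gene the filter favours a fall. Zfp553, Zfp61, Zfp623 and Zfp60 fell by 1.22, 1.19, 1.15 and 1.12 at 1 h. Zfp263 stood at 8.42, 10.9 and 17.0 RPKM at 0 h and at 25.6, 28.96 and 50.3 RPKM at 2 h and rose by 1.49. Zfp800, Zfp451, Zfp281 and Zfp658 rose at 2 h under MPH by 1.65, 1.41, 1.25 and 1.21. Of these, Zfp658 did not pass under DMSO, where its difference was 0.05. The largest fall at 2 h under MPH was that of Zfp667, described below with its response to MPH.

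Few Zfp mRNAs passed for a difference with MPH alone. At 0 h, before LPS, 2 of the 200 genes were higher in the 3 MPH cultures than in the DMSO cultures D3 to D6 and none was lower, where 0.869% of all kept genes were called in either direction. The medians were -0.04 for the Zfp genes and -0.04 for all kept genes. Zfp516, a transcription factor known for activating Ucp1 in brown fat, stood at 6.36, 8.91 and 9.86 RPKM in M2, M4 and M3, and at 2.46, 2.87 and 3.54 RPKM in the lowest, median and highest of the 7 DMSO libraries. All 3 MPH libraries lay above all 7 DMSO libraries, and the log2 difference was 1.30 ± 0.20 (SE), with an adjusted p of 0.0031 by limma. Zfp667, a KRAB protein with 14 fingers, stood at 1.34, 2.73 and 3.02 RPKM in M4, M3 and M2, and between 0.290 and 0.682 RPKM in the 7 DMSO libraries, again without overlap. Its log2 difference was 1.42 ± 0.31, with an adjusted p of 0.037. The summed neutrophil markers were 40.7 to 54.5 RPKM in these MPH libraries and 5.71 to 48.9 RPKM in the DMSO libraries at 0 h, and their part in the difference was not tested.

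These 2 calls depend on the fit. With the culture as a random block, Zfp516 had an adjusted p of 0.109 and Zfp667 of 0.137, and neither passed. A block on pairs that deviated together (D3 with M2, D4 with M3, D5 with M4), chosen after seeing the data, gave 10 calls. These are 5% of the Zfp genes, beside 7.36% of all kept genes. Zfp516 passed whichever culture was left out, with adjusted p from 0.005 to 0.0305, and Zfp667 passed only when M4 was left out. Zfp715, Zfp821 and Zfp703, the next by p, had log2 differences of -0.78, 1.01 and 1.12 and did not pass (limma adjusted p of 0.062, 0.23 and 0.37). Zfp715, a KRAB protein, stood at 1.74 to 2.67 RPKM under MPH and 2.17 to 4.99 RPKM under DMSO, so the ranges overlapped.

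Both genes then fell with LPS under MPH. They had been chosen for their high MPH libraries at 0 h, and those libraries are also the baseline of the LPS differences under MPH. The choice therefore favours a fall. Zfp516 stood at 5.52, 9.22 and 4.11 RPKM in M2, M3 and M4 at 1 h and at 4.14, 3.15 and 3.39 RPKM at 2 h, a log2 difference of -1.11 ± 0.22 (SE) at 2 h with an adjusted p of 0.0015 by limma. Under DMSO it stood at a median of 2.87, 4.22 and 3.22 RPKM at 0, 1 and 2 h and rose at 1 h by 0.38. At 2 h the 3 MPH libraries (3.15 to 4.14 RPKM) overlapped with the 7 DMSO libraries (2.78 to 3.69 RPKM). Zfp667 stood at 1.62, 1.56 and 0.223 RPKM in M2, M3 and M4 at 1 h and at 0.460, 0.159 and 0.156 RPKM at 2 h, and fell by 1.89 at 2 h under MPH and by 0.66 under DMSO. Its 0 h values under DMSO were near the pseudocount of 0.5 RPKM, which limits the size of a fall there.

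The difference between both responses was tested directly. No Zfp gene passed for the difference in the 1 h response (0% of all kept genes passed, and 1 Zfp gene had an unadjusted p under 0.05 by limma), and none for that in the 2 h response (0.106% of all kept genes passed, and 7 Zfp genes had an unadjusted p under 0.05). With the culture as a block, 3 passed for the 2 h response, where 1.42% of all kept genes did. These were Zfp516, with a difference of -1.19 and an adjusted p of 0.0419 by limma, Zfp667, with -1.23 and 0.046, and Zfp715, with 0.73 and 0.0196. The same 3 genes had the smallest p among the Zfp genes for MPH against DMSO at 0 h. Both comparisons use the same 0 h libraries, so these results are not independent. Zfp715 fell by 0.77 at 2 h under DMSO, from a median of 3.96 to 2.00 RPKM, and its difference under MPH was 0.01, with medians of 1.87 and 2.00 RPKM.

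During LPS, no Zfp gene passed for MPH against DMSO at 1 h (0% of all kept genes, with 4 Zfp genes at an unadjusted p under 0.05) or at 2 h (0.85% of all kept genes, with 8 Zfp genes at an unadjusted p under 0.05). The block on culture pairs chosen after seeing the data gave 0 calls at 1 h and 8 at 2 h (4%, beside 11.9% of all kept genes). The 5 with the smallest p at 1 h were Zfp667, Zfp516, Zfp422, Zfp52 and Zfp704. Zfp52, a KRAB protein with 14 fingers, stood at 15.2, 11.3 and 1.44 RPKM in M2, M3 and M4 at 1 h, and at 1.58 to 4.72 RPKM in the 7 DMSO libraries. Only the library labelled M4 lay among the DMSO libraries. Without that library 2 Zfp genes passed at 1 h, where 1.35% of all kept genes did: Zfp52, with a log2 difference of 2.14 and an adjusted p of 0.0193 by limma, and Zfp667, with 1.39 and 0.0074.

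At 2 h Zfp52 stood at 9.39, 9.05 and 3.65 RPKM in M2, M3 and M4 and at 1.31 to 3.35 RPKM under DMSO, so the groups did not overlap, with a log2 difference of 1.43 ± 0.56 (SE) and an adjusted p of 0.37 by limma. Zfp658, a KRAB protein with 21 fingers, stood at 1.67, 2.55 and 1.95 RPKM in M2, M3 and M4 at 2 h and at 0.375 to 1.36 RPKM under DMSO, with a log2 difference of 0.88 ± 0.23 and an adjusted p of 0.085. Without the 1 h library labelled M4, which takes part in the estimate of spread, the adjusted p of Zfp658 was 0.0249. At 0 h the levels of Zfp658 overlapped, at 0.520 to 0.695 RPKM under MPH and 0.376 to 0.853 RPKM under DMSO. Zfp146, Zfp687 and Zfp275, the others with the smallest p at 2 h, had log2 differences of -0.47, 0.31 and -0.52 and did not pass.

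**Figure D5:**
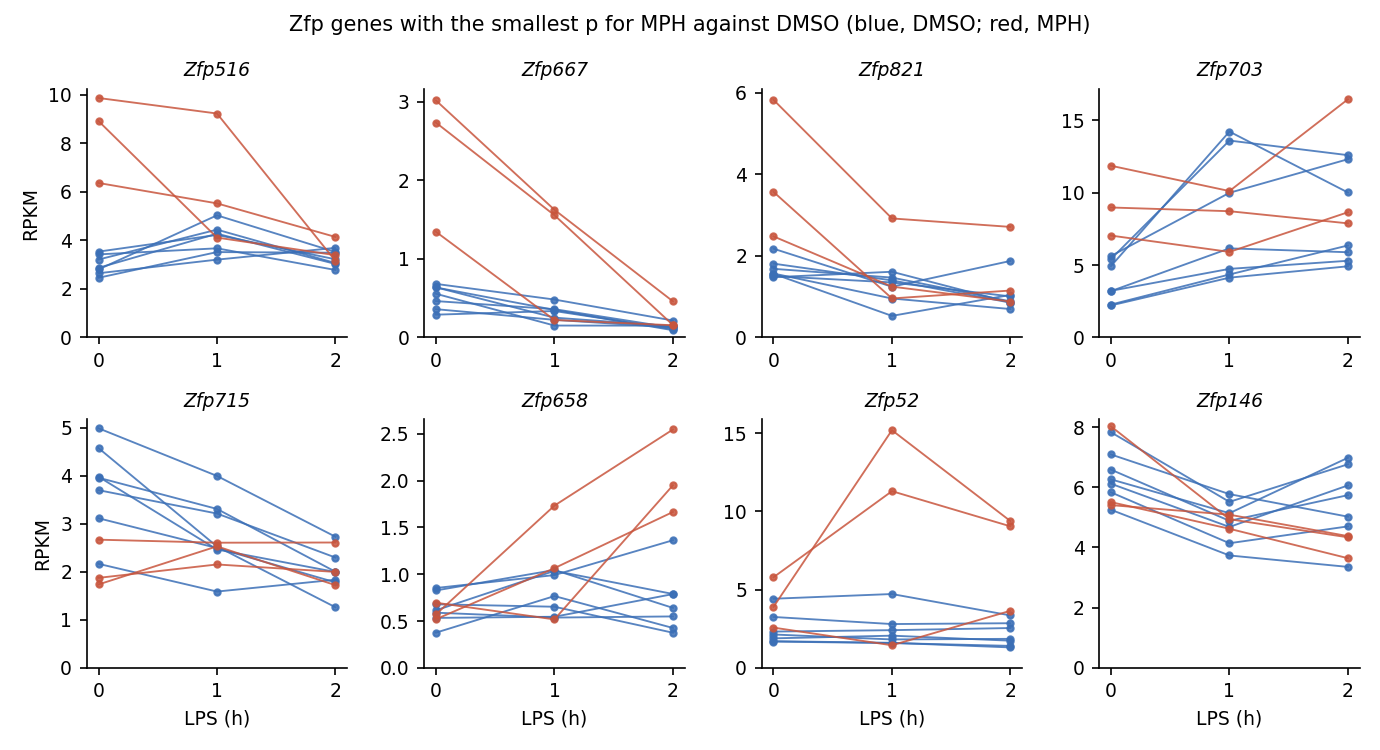
RPKM (vertical axes, from 0) at 0, 1 and 2 h of LPS (horizontal axes) for 8 Zfp genes with the smallest p for MPH against DMSO, 1 line per culture (blue, 7 with DMSO; red, 3 with MPH). For Zfp516 and Zfp667 the red lines start above all blue lines, at 6.36-9.86 and 1.34-3.02 RPKM, and have come close to them at 2 h, while for Zfp658 and Zfp52 they lie above all blue lines at 2 h.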

How the data were processed

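RNA was sequenced from 30 libraries, and the authors deposited RPKM values for 44401 transcript entries. Per the submitters' processing notes, FastQC, cutadapt, HISAT2 and SAMtools were used with genome build mm9. For the counting program, its annotation and its use of strand, nothing is given in the sources used here. All 30 value columns were matched to libraries by name. RPKM are not counts, so values were tested as log2(RPKM + 0.5) with limma 3.58.1 (trend, R 4.3.3), adjusted by Benjamini-Hochberg over 10355 genes at 0.05. LPS under DMSO was fitted over 21 DMSO libraries with the name series (D, UKD, r) as covariate, and MPH contrasts over D3 to D6 and M2 to M4 with 1 mean per treatment and time. The pseudocount makes fold changes of low genes too small. No value was 0. Low values rise in steps of 1 read, and the steps of 6323 transcripts gave the depth of each library.

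The members and gene lists were chosen with earlier results of these data known. Named genes are the 10 highest at 0 h, up to 8 rises and 8 falls per comparison, the 5 smallest p where fewer than 5 passed, the role lists and the genes at the level limit. The 2 h against 1 h contrast, and the naming of its leading genes, were chosen after seeing the data. Proteins were translated from a GENCODE M21 transcript set and searched for a KRAB box and C2H2 fingers by pattern. The fit was tried on simulated data with known changes, in which the libraries were independent. That simulation cannot show how the fit behaves where libraries of a culture deviate together. Libraries of the same culture at other times deviated together (30 of 30 pairs with a correlation over 0.1, from 0.62 to 0.91), so the culture pairs the LPS comparisons. Counts of calls are also given with the culture as a block. The p-values of single genes are from the fit without it unless the block is named. No label pairs MPH with DMSO cultures, and blocks that pair them rest on the culture names or were chosen after seeing the data.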

Additional observations from a re-analysis of the deposited data

Results flagged for a closer look

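Levels were compared within the groups of 7 DMSO libraries for 34 named genes, 104 groups in all, and 7 groups held a library far from the others by Dixon's criterion. Chance alone gives about 1 such group in 20. Zfp275 stood at 3.22 RPKM in D4 at 0 h, with the other 6 libraries between 1.93 and 2.13 RPKM, and Zfp451 at 2.56 RPKM in D3 at 0 h, with the others between 1.45 and 1.76 RPKM. Zfp414 stood at 3.08 RPKM in D3 at 1 h, with the others between 6.09 and 8.19 RPKM, and at 3.53 RPKM in D6 at 2 h, with the others between 5.05 and 6.09 RPKM. Zfp472 stood at 0.408 RPKM in r1 at 2 h, with the others between 0.734 and 0.977 RPKM. In D3 at 2 h, Zfp652 stood at 2.19 RPKM, with the others between 0.583 and 1.09 RPKM, and Zfp719 at 1.86 RPKM, with the others between 0.798 and 1.17 RPKM.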

How the results depend on the processing

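Of 132 results for single genes, recomputed under alternatives to 2272 values, 2059 kept their direction and their side of the threshold, 138 lost and 46 gained a call, and 29, in 13 results, changed sign. The median of the Zfp genes after LPS was below that of all tested genes in all 72 values computed. These cover both times under DMSO and MPH and include the main fits. Subtracting library medians shifts all genes of a library alike, so it could not change this difference. Under MPH at 0 h, the 2 calls became 1 with a pseudocount of 0.1, with a filter on the mean, with no filter, without the 3 shallowest libraries, and with 0 h libraries only, 4 with all 7 DMSO cultures, and 1 to 2 when a culture was left out. The main fit called 1% of the Zfp genes, beside 0.869% of all tested genes. The 4 calls are 2%, beside 2.47%. In the other fits named, the Zfp share was 0.5% to 1%, beside 0.226% to 1.1% of all tested genes. Under MPH at 1 h, 0 calls became 2 without the M4 library and 0 to 2 when a culture was left out, and at 2 h they became 1, 2 with all 7 DMSO cultures, and 0 to 1. At 1 h the 2 calls (1%) stood beside 1.35% of all tested genes without the M4 library and 1.09% without culture M4. At 2 h, 1 call (0.5%) stood beside 2.09% and 1.29% in those fits. With all 7 DMSO cultures, 2 calls at 2 h (1%) stood beside 3.91%. For LPS under DMSO, a filter on the mean gave 70 calls at 1 h and 86 at 2 h, by testing fewer members, D3 to D6 alone gave 24 and 61, and leaving out the 3 shallowest libraries gave 72 at 1 h. With the filter on the mean these were 50.4% and 61.9% of the Zfp genes tested, beside 19.9% and 54.2% of all tested genes. With D3 to D6 they were 12% and 30.5%, beside 4.06% and 24.9%. Without the 3 shallowest libraries they were 36%, beside 11.8%. For LPS under MPH at 1 h there were 10 calls with the filter on the mean, 13 with no filter, 15 without the M4 library and 7 to 22 when a culture was left out (7 without M2 or M3, 11 without M4, 15 without D5). These were 7.19%, 6.5%, 7.5% and 3.5% to 11% of the Zfp genes tested. Beside them stood 2.62%, 1.03%, 3.15% and 1.45% to 2.86% of all tested genes. At 2 h there were 33 calls with the filter on the mean, 34 with median-of-ratios scaling, 35 with library medians subtracted and 30 to 56 when a culture was left out (30 without M3 or M4, 33 without M2). These were 23.7%, 17%, 17.5% and 15% to 28% of the Zfp genes tested. Beside them stood 20.3%, 13.7%, 13.6% and 7.98% to 21.2% of all tested genes.

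With the culture as a block, calls for LPS were 154 at 1 h and 159 at 2 h under DMSO (77.0% and 79.5% of the Zfp genes, beside 53.2% and 76.5% of all kept genes), 86 and 116 under MPH (43.0% and 58.0%, beside 12% and 54.1%), and 3 for the difference in the 2 h response (1.5%, beside 1.42%). With the culture as a random block there were 0 calls for MPH at 0 h. A block on the number in the culture name (D3 with M3, D4 with M4) gave 25, 6 and 13 calls for MPH at 0, 1 and 2 h (12.5%, 3% and 6.5%, beside 8.59%, 1.53% and 7.65% of all kept genes), but all 6 such pairs had negative correlations (-0.63 to -0.34). A block on the pairs that deviated together (D3 with M2, D4 with M3, D5 with M4, chosen after seeing the data) gave 10, 0 and 8 (5%, 0% and 4%, beside 7.36%, 0% and 11.9%).

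The Zfp median minus that of all kept genes, under DMSO, was -0.38 at 1 h with a pseudocount of 0.1, and -0.43 at 1 h and -0.44 at 2 h with no filter. Under MPH at 1 h it was -0.36 with a pseudocount of 0.1, -0.21 with 1, -0.23 with the filter on the mean, -0.36 with no filter and -0.21 without the M4 library, and at 2 h -0.24 with a pseudocount of 0.1 and -0.38 with no filter. For MPH at 1 h it was 0.0617, and for the difference in the 1 h response 0.10, with no filter. The cause of these changes was not tested.

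Signs changed for LPS under DMSO as follows. Median-of-ratios scaling gave 0.0154 for Zfp106, 0.12 for Zfp598 and 0.00215 for Zfp638 at 1 h, and 0.00205 for Zfp106, 0.0483 for Zfp207, 0.10 for Zfp384, 0.15 for Zfp593, 0.19 for Zfp638, 0.12 for Zfp143 and 0.15 for Zfp318 at 2 h. Subtracting library medians gave 0.0822 for Zfp598 at 1 h, and 0.0351 for Zfp384, 0.12 for Zfp593, 0.13 for Zfp638, 0.0737 for Zfp143 and 0.13 for Zfp318 at 2 h. Averaging transcript entries gave -0.0121 for Zfp318 at 1 h, and leaving out the 3 shallowest libraries -0.0156 for Zfp384 at 1 h. D3 to D6 alone gave 0.02265 for Zfp593, -0.0783 for Zfp217 and 0.0299 for Zfp318 at 2 h. Leaving out 1 culture gave -0.0255 to 0.03415 for Zfp318 and -0.0740 to 0.0224 for Zfp598 at 1 h, and -0.0955 to 0.0213 for Zfp638, -0.12 to 0.00135 for Zfp593 and -0.0634 to 0.19 for Zfp217 at 2 h.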
